A study of Sus scrofa with 8 samples.

Results

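Complexes II to V of the mitochondrial respiratory chain were followed through their nuclear genes in the longissimus dorsi, the long muscle of the back, of weaned piglets given saline or melatonin. Genes were taken by deposited gene name: names beginning with SDHA, SDHB, SDHC, SDHD or SDHAF for complex II, UQC and CYC1 for complex III, COX followed by a digit for complex IV, and ATP5 for complex V. The rule matched 54 genes, and 52 of them had a mean of at least 1 FPKM (fragment counts divided by transcript length and sequencing depth) over the 8 libraries, of 9821 genes past that filter and 23235 in the table. They comprise 7 genes of complex II, 11 of complex III, 21 of complex IV and 13 of complex V. By role, 37 encode structural subunits, 14 encode assembly factors and 1, ATP5IF1, encodes an inhibitor. Just inside the filter stood COX16 with a mean of 1.68 FPKM, and just outside it COX18 with 0.885; COX6B2, the testis isoform of subunit 6B, was the other gene left out, with a mean of 0.246. Subunits encoded by the mitochondrial genome lie outside the chromosomes of the table (1 to 18, X and Y) and were not analysed here, and neither were subunits that the table names by an Ensembl identifier alone.

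Complex II oxidises succinate and passes the electrons to coenzyme Q, complex III carries them on to cytochrome c, and complex IV hands them to oxygen. Complexes III and IV pump protons across the inner mitochondrial membrane, and complex V lets the protons back through a rotating ring to make ATP. In skeletal muscle, slow oxidative fibres hold more of this machinery than fast glycolytic fibres, and several complex IV subunits exist in a heart and muscle isoform beside a ubiquitous one.

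The animals were Duroc x Landrace x Yorkshire crosses, weaned and 28 days old, and 12 of them were randomised into groups of 6. After 5 days of adaptation, controls received 10 mL of sterile saline by gavage each day for 23 days, and the other group received melatonin, the pineal hormone that signals darkness, in the same volume at 5 mg per kg body weight. The diet was the same for all, and the labels name no other treatment and no sex. Poly(A) RNA was sequenced from 4 libraries of each group, identified by group and replicate number only.

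Total counts ran from 53471667 to 60629098 per library, so that depth differed little between libraries. The fast fibre and general muscle fibre genes were high in every library: the summed level of the 6 muscle fibre markers that the table names, of 8 listed, was 94454 to 109383 FPKM in controls and 77452 to 100361 after melatonin, and the fast fibre markers summed to 19271 to 23415 and 16293 to 24045 FPKM. Melatonin replicates 1 and 3 stood apart in matrix genes, where the 6 markers listed, all in the table, summed to 8451 and 2522 FPKM against 655 and 663 in the other melatonin libraries and 478 to 936 in controls. Most of these 2 sums came from COL1A1 (3457 and 913 FPKM) and COL1A2 (3550 and 908). In LUM and COL3A1, replicate 3 (18.8 and 361 FPKM) lay below control 1 (29.5 and 443). Melatonin replicates 1 and 3 were also high in the summed level of the 4 adipocyte markers. The sums were 203 and 189 FPKM, against 68.4 and 13.5 in the other melatonin libraries and 21.2 to 119 in controls. Controls 1 and 3 were the 2 controls highest in slow fibre markers (3948 and 2385 FPKM, against 887 and 1297) and in red blood cell markers (121 and 165 FPKM, against 41.8 and 41.3). After melatonin, in library order, the slow fibre sums were 2008, 272, 2422 and 1344 FPKM and the red blood cell sums 38.4, 40.8, 99.4 and 37.8 FPKM. Endothelial markers (36.4 to 52.9 FPKM in controls, 35.6 to 52.4 after melatonin) and macrophage markers (4.73 to 10.0 and 4.46 to 15.2) overlapped between the groups, and no marker was listed at 0 in every library, though LEP, the hormone of fat cells, was at 0 in 5 of 8. In bulk tissue, fewer cells of a type and less RNA per cell cannot be told apart.

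Nearly all of the 52 genes had a lower fitted level after melatonin, by amounts that the 8 libraries could not separate from the spread between replicates. In edgeR, 47 of 52 log2 fold changes (90.4%) lay below 0, against 50.2% of all genes tested, and with scaling on the muscle fibre markers, which moved the median of all genes to 0.26, 34 of 52 did, against 18.6% of all genes. Under that scaling the median of the 52 genes lay at -0.09, a difference of -0.35 from all genes. Median-of-ratios and upper-quartile scaling gave 47 of 52. The median log2 fold change was -0.33, with a range from -0.54 in CYC1 to 0.56 in COX19, beside a median of -0.00142 over all genes. Of the 52, 0 passed the adjusted threshold of 0.05 in edgeR's quasi-likelihood test, where 0.00% of all genes passed, and adjusted p ran from 0.440 to 0.929. DESeq2 called 0 of the 52 against 0.662% of all genes, and limma on log2(FPKM + 1) called 0 against 0.00%. At an unadjusted p under 0.05, edgeR had 13 of 52 lower (25.0%), against 3.84% of all genes, and 1 of 52 higher, against 6.67%. The count of 13 lower genes rests on single libraries. It was 2, 8, 6 and 31 without control replicates 1 to 4, each left out singly. It was 4 without melatonin replicate 1 and 3 without melatonin replicate 3. Of all genes, 2.74, 2.99, 3.21, 4.64, 3.21 and 1.95% were lower in those refits, in that order. Without melatonin replicates 2 and 4 singly, the count of lower genes was 9 and 13, where 2.64 and 8.04% of all genes were lower. With scaling on the muscle fibre markers 0 of the 52 were lower and 1 higher, where 0.519% of all genes were lower. limma on log2(FPKM + 1) placed 2 of 52 lower at an unadjusted p under 0.05, against 1.88% of all genes, and 1 higher.

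**Figure D1:**
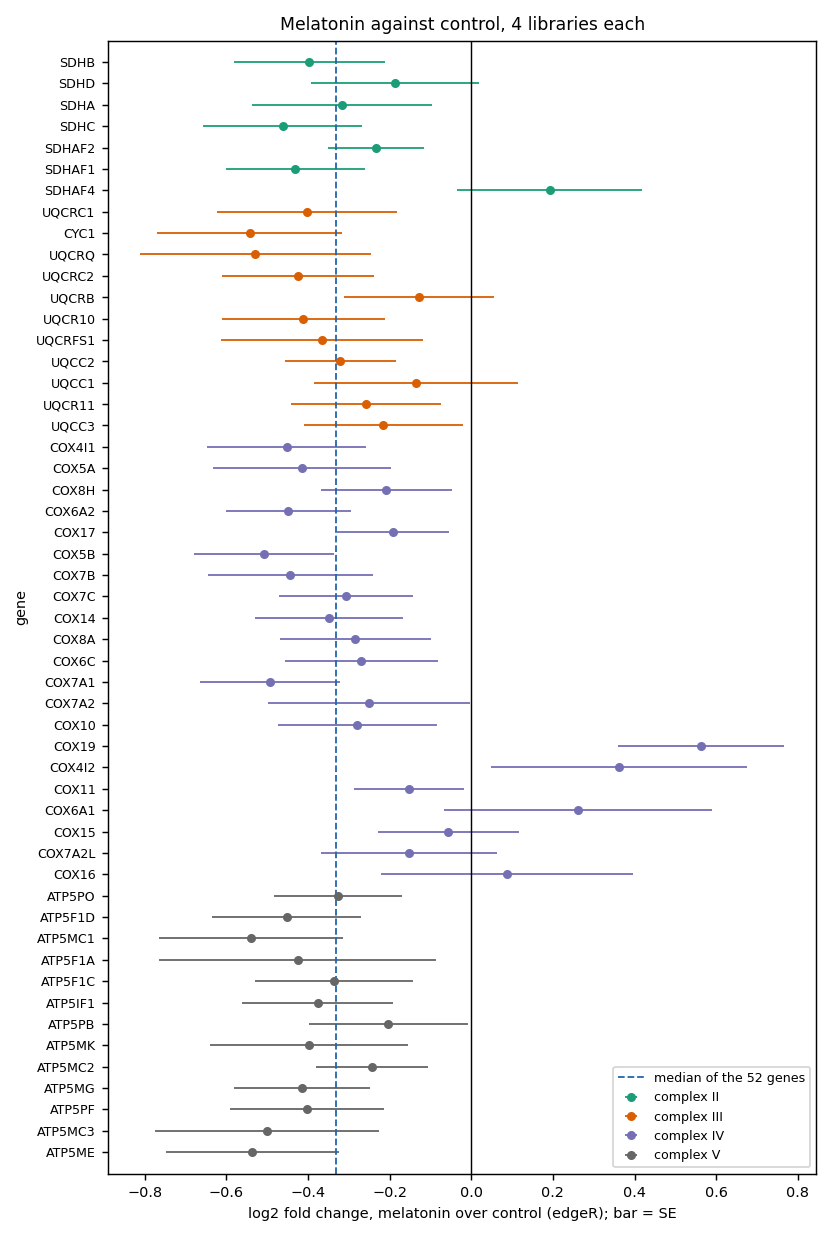
Log2 fold change (melatonin against control, edgeR with TMM scaling) of each of the 52 genes, with bars for the standard error, by complex. Of the 52 points 47 lie left of 0 (34 with scaling on muscle fibre markers), and COX19 at 0.56 lies farthest right.

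The controls differed among themselves more than the melatonin libraries did. Summed over the 52 genes, the level was 4861, 3164, 4365 and 2981 FPKM in controls 1 to 4 and 3002, 3135, 3329 and 2916 FPKM in melatonin replicates 1 to 4, or 3843 ± 915 against 3095 ± 180 (SD, n = 4 each). In summed FPKM the high libraries were controls 1 and 3, while controls 2 and 4 lay within the narrow range of the melatonin libraries. In TMM-scaled CPM, however, control 2 lay above all melatonin libraries. The mean log2 deviation of the 52 genes from the control mean was 0.27, -0.04, 0.16 and -0.40 in controls 1 to 4. In melatonin replicates 1 to 4 it was -0.40, -0.17, -0.31 and -0.19. As a share of all counts the 52 genes took 0.879, 0.547, 0.787 and 0.500% in controls and 0.513, 0.551, 0.582 and 0.530% after melatonin. Controls 1 and 3 were the 2 highest of the 8 libraries in 33 of 52 genes (63.5%), against 6.18% of all genes tested. This held in 4 of 7 genes of complex II, 8 of 11 of complex III, 9 of 21 of complex IV and 12 of 13 of complex V. The SD of the FPKM values was larger in controls than after melatonin in 41 of 52 genes (78.8%), against 34.6% of all genes. On the log2 scale the median SD was 0.34 in controls and 0.19 after melatonin, where all genes had 0.24 and 0.28. The slow fibre and red blood cell markers given above were also high in controls 1 and 3. After melatonin the slow fibre sums were 2008, 272, 2422 and 1344 FPKM. Replicates 1 and 3 thus lay above controls 2 and 4 (887 and 1297). The part of the slow fibre and red blood cell markers in the levels of the 52 genes was not tested.

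**Figure D2:**
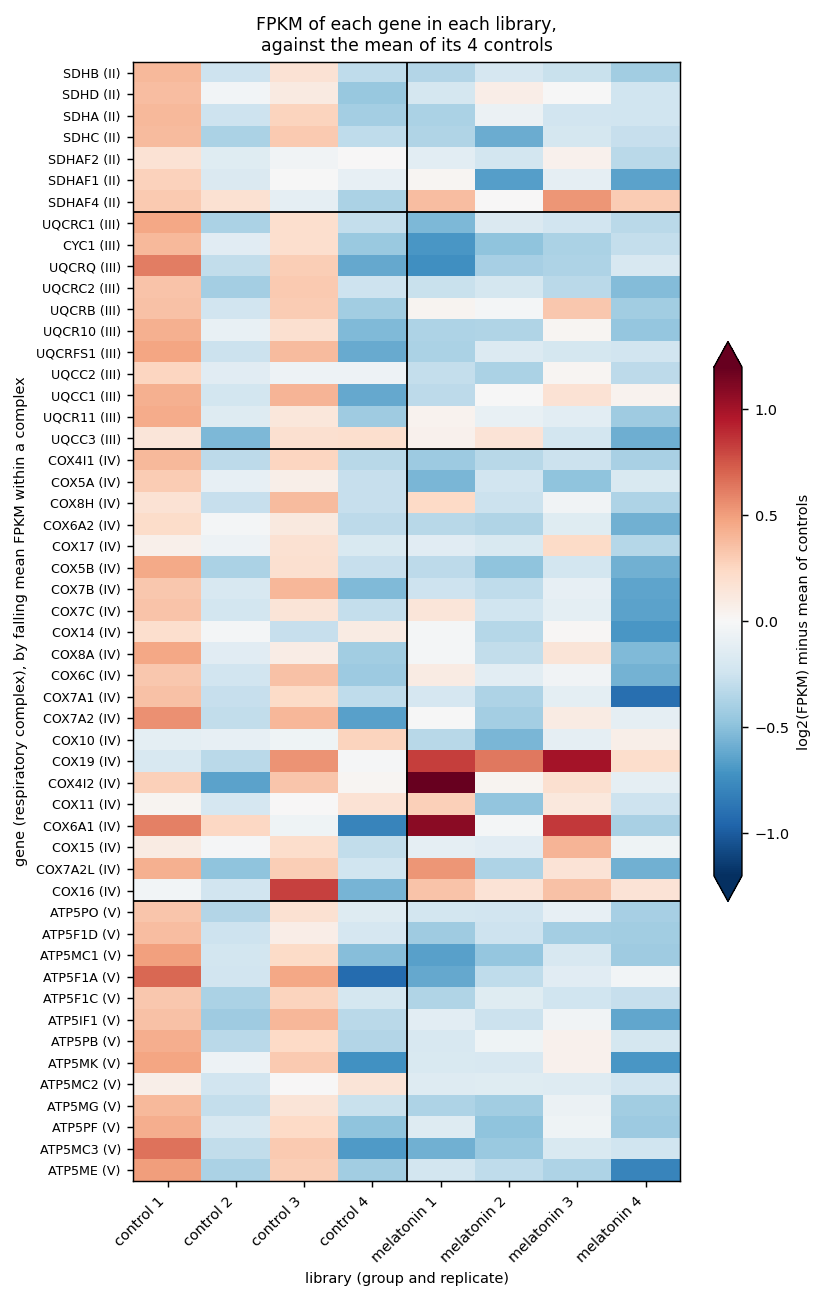
Heat map of the 52 genes (ordered by complex) in the 8 libraries, coloured by log2 FPKM minus the mean of the controls for that gene. Controls 1 and 3 hold the 2 highest values in 33 of 52 genes, and COX4I2 in melatonin replicate 1 lies beyond the colour scale.

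Complex II is the only respiratory complex whose subunits are all nuclear. Its 7 genes had a median log2 fold change of -0.32, with 6 lower (4 with scaling on the muscle fibre markers) and 1 higher. Of the 7, 2 were lower at an unadjusted p under 0.05, against 3.84% of all genes. That count was 0 without control replicate 1 or melatonin replicate 3 and 1 without any other single library except control replicate 4 (3). Of all genes, 2.74, 1.95 and 4.64% were lower without control replicate 1, melatonin replicate 3 and control replicate 4. The 4 subunits had a median of -0.36. SDHA, the flavoprotein that oxidises succinate (chromosome 16, 79834044 to 79862524, Sscrofa11.1), measured 70.1, 45.2, 64.4 and 40.2 FPKM in controls and 41.1, 51.0, 45.6 and 45.4 after melatonin. Controls 1 and 3 lay above all other libraries, control 2 lay among the melatonin values and control 4 below them. In counts, which are not divided by length, SDHA ran from 15494 to 26215 and SDHB from 9673 to 15982. SDHB, the iron-sulphur subunit (chromosome 6, 75648215 to 75678378), had the highest mean FPKM of the complex. SDHB measured 192, 124, 165 and 119 FPKM in controls and 116, 128, 122 and 110.2 after melatonin, or 150.0 ± 35.2 FPKM against 119 ± 7.83 (SD, n = 4 each). Its log2 fold change was -0.40 ± 0.19 (SE), with an adjusted p of 0.485 in edgeR, and the groups overlapped.

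SDHC and SDHD anchor the complex in the membrane and bind coenzyme Q. SDHC (chromosome 4, 89130379 to 89169118) measured 30.7, 18.1, 29.4 and 19.1 FPKM in controls and 18.3, 15.6, 20.4 and 19.4 after melatonin, with 1 and 3 again the high controls, and had a log2 fold change of -0.46 ± 0.20 (SE; edgeR adjusted p = 0.463). SDHD measured 123, 93.0, 103 and 69.5 FPKM in controls and 81.9, 101, 94.9 and 80.6 after melatonin, and its log2 fold change of -0.19 ± 0.21 (SE; edgeR adjusted p = 0.737) became 0.00497 without melatonin replicates 1 and 3 and 0.05 with scaling on muscle fibre markers. The SDHD gene overlaps DLAT on the same strand and TIMM8B on the opposite strand, and whether counting used strand is not given in the sources used here, so its reads may be shared.

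The assembly factors of complex II were far less abundant, between 1.2002 and 6.28 FPKM. SDHAF1, an assembly factor for the iron-sulphur subunit, measured 2.58, 1.90, 2.12 and 2.00 FPKM in controls and 2.16, 1.35, 1.97 and 1.36 after melatonin. Melatonin replicates 2 and 4 lay below every control while replicates 1 and 3 lay within the control range, and the log2 fold change was -0.43 ± 0.17 (SE; edgeR adjusted p = 0.453). SDHAF2, which attaches the flavin to SDHA, had a log2 fold change of -0.23 ± 0.12 (SE; edgeR adjusted p = 0.506), or 0.02 with scaling on muscle fibre markers. SDHAF4, an assembly factor for SDHA, was the gene of the complex on the other side of 0, with 1.59 ± 0.334 FPKM against 1.95 ± 0.29 (SD, n = 4 each) and a log2 fold change of 0.19 ± 0.23 (SE; edgeR adjusted p = 0.758).

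In complex III all 11 genes had a log2 fold change below 0 (8 with scaling on the muscle fibre markers), with a median of -0.37. Of the 11, 3 lay at an unadjusted p under 0.05, where 3.84% of all genes were lower. Without melatonin replicate 1, 10 of 11 lay below 0. The count of 3 was 0 when melatonin replicate 1, melatonin replicate 3 or control replicate 1 was left out (3.21, 1.95 and 2.74% of all genes). It was 1 without control replicate 2 or 3 (2.99 and 3.21%), and 8 without control replicate 4 (4.64%). The 8 subunits had a median of -0.41 and the 3 assembly factors one of -0.22. CYC1, the haem protein cytochrome c1 that passes electrons to cytochrome c (chromosome 4, 606516 to 608996), had the lowest fold change of the 52 genes. It measured 178, 124, 157 and 100.1 FPKM in controls and 84.0, 97.5, 105 and 112 after melatonin, or 139.7 ± 34.6 FPKM against 99.6 ± 12.0 (SD, n = 4 each), and control 4 lay inside the melatonin range. Its log2 fold change was -0.54 ± 0.23 (SE; edgeR adjusted p = 0.461).

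UQCRC1 and UQCRC2 are the core proteins that face the matrix. UQCRC1 (chromosome 13, 31298449 to 31309516), the most abundant gene of complex III, measured 227, 126, 189 and 134 FPKM in controls and 113, 145, 139 and 131 after melatonin, with a log2 fold change of -0.40 ± 0.22 (SE; edgeR adjusted p = 0.530). UQCRC2 (chromosome 3, 24197747 to 24228832) measured 138, 82.2, 136 and 91.9 FPKM in controls and 90.6, 94.4, 87.4 and 76.3 after melatonin, with -0.42 ± 0.19 (SE; edgeR adjusted p = 0.473). Both were highest in controls 1 and 3, and in both a control lay among the melatonin values. UQCRFS1, the Rieske iron-sulphur protein that takes electrons from coenzyme Q (chromosome 6, 39364890 to 39373872), measured 71.6, 43.1, 67.2 and 34.0 FPKM in controls and 39.7, 46.0, 44.5 and 44.0 after melatonin, and control 4 was the lowest of all 8 libraries. Its log2 fold change was -0.37 ± 0.25 (SE; edgeR adjusted p = 0.586).

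The small supernumerary subunits spread more widely. UQCR10 had 94.9 ± 25.6 FPKM against 75.7 ± 12.0 (SD, n = 4 each) and a log2 fold change of -0.41 ± 0.20 (SE; edgeR adjusted p = 0.496). Named here after their values were seen, UQCRQ had -0.53 ± 0.28 and UQCRB, which lies against cytochrome b, had -0.13 ± 0.18, or 0.14 with scaling on muscle fibre markers (SE; edgeR adjusted p = 0.526 and 0.808). UQCRB measured 118, 79.0, 114 and 69.5 FPKM in controls and 94.9, 91.1, 116 and 69.6 after melatonin, so that melatonin replicate 3 lay between controls 1 and 3, the highest controls. UQCC2 and UQCC3 help to make cytochrome b. UQCC2 measured 17.9, 13.6, 14.3 and 14.4 FPKM in controls and 12.3, 11.5, 15.2 and 12.1 after melatonin, with -0.32 ± 0.14 (SE; edgeR adjusted p = 0.463). UQCC3, the least abundant gene of the complex, measured 4.45, 2.79, 4.61 and 4.64 FPKM in controls and 4.19, 4.52, 3.45 and 2.68 after melatonin, and its log2 fold change of -0.22 ± 0.19 (SE; edgeR adjusted p = 0.685) was 0.01 with scaling on muscle fibre markers.

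Complex IV held 4 of the 5 genes of the 52 whose log2 fold change lay above 0. Its 21 genes had a median of -0.27 (0.000422 with scaling on muscle fibre markers), with 17 lower and 4 higher (10 lower under that scaling). Of these, 4 and 1 lay at an unadjusted p under 0.05, against 3.84 and 6.67% of all genes. The 4 lower genes became 2 without control replicate 1 (2.74% of all genes) and 10 without control replicate 4 (4.64%). The 13 subunits had a median of -0.31, with 11 lower, and the 8 assembly factors one of -0.15, with 6 lower. COX4I1, the ubiquitous isoform of subunit 4 (chromosome 6, 3131019 to 3137530), was the most abundant gene of the complex. It measured 556, 343, 508 and 337 FPKM in controls and 313, 337, 356 and 324 after melatonin, or 436 ± 112 FPKM against 332 ± 18.3 (SD, n = 4 each). Here controls 1 and 3 stood clear of the rest, while controls 2 and 4 lay within the melatonin range. The log2 fold change was -0.45 ± 0.20 (SE; edgeR adjusted p = 0.467).

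COX5A and COX5B sit beside the catalytic core, and COX5B binds zinc. COX5A measured 368, 277, 312 and 245 FPKM in controls and 203, 254, 213 and 262 after melatonin, with -0.41 ± 0.22 (SE; edgeR adjusted p = 0.525). COX5B (chromosome 3, 56629272 to 56632119) measured 113, 63.3, 94.3 and 68.0 FPKM in controls and 66.0, 59.0, 70.6 and 55.2 after melatonin, with -0.51 ± 0.17 (SE; edgeR adjusted p = 0.440). Melatonin replicates 2 and 4 lay below every control in COX5B, and replicates 1 and 3 overlapped the lower controls. Among the assembly factors, COX19, which takes part in copper delivery to the complex (chromosome 3, 630481 to 635280), had the highest fold change of the 52 genes. It measured 4.24, 3.87, 7.05 and 4.82 FPKM in controls and 8.67, 7.54, 9.73 and 5.63 after melatonin, or 5.00 ± 1.42 FPKM against 7.89 ± 1.75 (SD, n = 4 each). Melatonin replicates 1, 2 and 3 lay above every control, and replicate 4 lay below control 3. The log2 fold change was 0.56 ± 0.20 (SE; edgeR adjusted p = 0.446). COX16, an assembly factor for the mitochondrially encoded subunit COX2 and the least abundant gene kept, had 0.09 ± 0.31 (SE; edgeR adjusted p = 0.929), and -0.09 without control replicate 4. COX7A2L, which joins complexes III and IV in supercomplexes, had -0.15 ± 0.22 (SE; edgeR adjusted p = 0.805), and 0.14 with scaling on muscle fibre markers. COX17, a copper chaperone named after its values were seen, had -0.19 ± 0.14 (SE; edgeR adjusted p = 0.605), and 0.07 under that scaling.

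Subunits 6A, 7A and 8 each have a heart and muscle isoform and a ubiquitous one, and their proportions were compared within each library as log2 ratios of FPKM. FPKM levels of different genes depend on the transcript lengths used, so the ratio of raw counts is given beside each. COX6A2, the muscle isoform of subunit 6A (chromosome 3, 17133476 to 17135104), measured 107, 90.8, 99.98 and 73.9 FPKM in controls and 73.0, 71.6, 83.5 and 61.8 after melatonin, and COX6A1, the ubiquitous isoform (chromosome 14, 40408631 to 40412870), 4.16, 3.25, 2.64 and 1.59 FPKM in controls and 5.82, 2.71, 4.95 and 2.10 after melatonin. COX6A2 had the higher FPKM in every library, by 24.3-fold in mean FPKM and 7.47-fold in counts. The log2 ratio was 4.68, 4.80, 5.24 and 5.54 in controls and 3.65, 4.72, 4.08 and 4.88 after melatonin, with melatonin replicates 1 and 3 lowest. Group values were 5.07 ± 0.40 and 4.33 ± 0.57 (SD, n = 4 each), a difference of -0.74 with a two-sided exact permutation p of 0.143 and 0.333 after Benjamini-Hochberg adjustment over 5 ratios. The fold changes of the isoforms had opposite signs: -0.45 ± 0.15 for COX6A2 and 0.26 ± 0.33 for COX6A1 (SE; edgeR adjusted p = 0.441 and 0.773), the latter -0.18 without melatonin replicates 1 and 3. Matrix and adipocyte markers were high in those replicates, and their part in the COX6A1 level was not tested.

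The isoforms of subunit 7A stood at similar FPKM levels. COX7A1, of heart and muscle (chromosome 6, 45517229 to 45520713), measured 27.5, 17.8, 25.3 and 17.4 FPKM in controls and 18.7, 16.7, 19.9 and 11.5 after melatonin, and COX7A2, the ubiquitous isoform (chromosome 1, 90696698 to 90703409), 27.3, 15.3, 24.8 and 11.9 FPKM in controls and 18.7, 14.1, 20.1 and 17.4 after melatonin. The mean FPKM ratio was 1.03 and the ratio of COX7A1 to COX7A2 counts 4.40. The log2 ratio was 0.01, 0.22, 0.03 and 0.54 in controls and 0.00, 0.24, -0.01 and -0.60 after melatonin, so that melatonin replicate 4 stood low. Group values of 0.20 ± 0.25 and -0.09 ± 0.35 (SD, n = 4 each) overlapped (exact permutation p = 0.2, adjusted 0.333). COX7A1 had a log2 fold change of -0.49 ± 0.17 and COX7A2 one of -0.25 ± 0.25, or 0.00269 with scaling on muscle fibre markers (SE; edgeR adjusted p = 0.442 and 0.712).

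Subunit 8 was added once the table was seen to name COX8H. COX8H, the heart and muscle isoform (chromosome 2, 69200 to 70732), measured 162, 119, 186 and 118 FPKM in controls and 170.0, 119.8, 139 and 111 after melatonin, and COX8A, the ubiquitous isoform (chromosome 2, 8101613 to 8103285), 38.0, 25.1, 29.2 and 20.6 FPKM in controls and 27.1, 22.5, 30.7 and 19.1 after melatonin. COX8H had the higher FPKM in every library, by 5.30-fold in mean FPKM and 3.37-fold in counts. The log2 ratio of 2.38 ± 0.26 in controls and 2.45 ± 0.20 after melatonin (SD, n = 4 each) differed by less than the spread between replicates (exact permutation p = 0.771, adjusted 0.771). The log2 fold changes were -0.21 ± 0.16 and -0.28 ± 0.19 (SE; edgeR adjusted p = 0.630 and 0.579), and that of COX8H was 0.06 with scaling on muscle fibre markers.

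COX4I2, the oxygen-regulated isoform of subunit 4 (chromosome 17, 35341889 to 35346090), was scarce beside COX4I1. It measured 5.70, 2.99, 5.87 and 4.72 FPKM in controls and 12.4, 4.78, 5.33 and 4.32 after melatonin, with melatonin replicate 1 far above the other libraries. The log2 ratio of COX4I2 to COX4I1 was -6.61, -6.84, -6.43 and -6.16 in controls and -4.66, -6.14, -6.06 and -6.23 after melatonin. Group values of -6.51 ± 0.29 and -5.77 ± 0.75 (SD, n = 4 each) gave an exact permutation p of 0.0571, or 0.286 adjusted over 5 ratios, where 4 libraries against 4 cannot go below 0.0286. The log2 fold change of COX4I2 was 0.36 ± 0.31 (SE; edgeR adjusted p = 0.671), and -0.00634 without melatonin replicate 1, the library highest in matrix markers.

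**Figure D3:**
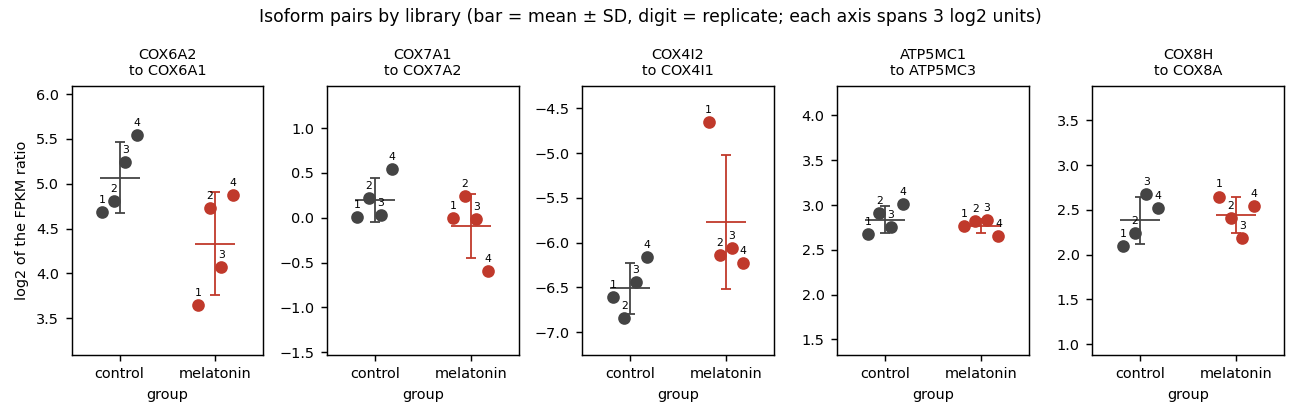
Log2 ratio of FPKM between paired isoforms in each library, with points for libraries and lines for group means and SD (n = 4 each). Groups overlap in all 5 pairs, and COX4I2 to COX4I1 in melatonin replicate 1, at -4.66, stands above the others.

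Complex V, the ATP synthase, had a log2 fold change below 0 in all 13 genes (12 with scaling on the muscle fibre markers), with a median of -0.40. At an unadjusted p under 0.05, 4 genes were lower, against 3.84% of all genes. That count was 0 when control replicate 1, control replicate 3, melatonin replicate 1 or melatonin replicate 3 was left out (2.74, 3.21, 3.21 and 1.95% of all genes). It was 2 without melatonin replicate 2 (2.64%), and 10 without control replicate 4 (4.64%). In the catalytic head, the alpha subunit ATP5F1A (chromosome 1, 95733090 to 95750841) measured 173, 92.0, 148 and 56.9 FPKM in controls and 70.1, 87.3, 98.2 and 106 after melatonin, or 118 ± 52.8 FPKM against 90.3 ± 15.4 (SD, n = 4 each). Control 4 was the lowest of the 8 libraries and control 1 the highest, and the log2 fold change was -0.43 ± 0.34 (SE; edgeR adjusted p = 0.641), or from -0.66 to -0.21 with single libraries left out. In the central shaft, the delta subunit ATP5F1D (chromosome 2, 77216436 to 77222632) measured 319, 208, 262 and 214 FPKM in controls and 184, 208, 186 and 185 after melatonin. It was the only one of the 52 genes whose melatonin values all lay below all controls, against 1.07% of all genes tested, and the gap was slight, between 207.982 FPKM in melatonin replicate 2 and 208.045 in control 2. No gene of the 52 lay wholly above, against 1.13% of all genes. In TMM-scaled CPM (counts scaled to library size), 5 genes lay wholly below (COX5B, SDHAF2, UQCC2, SDHAF1 and ATP5MC2), against 2.02% of all genes on that scale, and ATP5F1D was not among them. The log2 fold change of ATP5F1D was -0.45 ± 0.18 (SE; edgeR adjusted p = 0.457).

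ATP5PO, the protein that ties the head to the peripheral stalk (chromosome 13, 197509331 to 197519588), had the highest mean FPKM of complex V. In counts, which are not divided by length, ATP5F1A ran from 27384 to 76171 and ATP5PO from 11941 to 17937. No gene was matched under the name ATP5F1B. ATP5PO measured 378, 235, 342 and 269 FPKM in controls and 258, 257, 280.4 and 229 after melatonin, with -0.33 ± 0.16 (SE; edgeR adjusted p = 0.493). ATP5ME and ATP5MG sit where ATP synthase dimers meet. ATP5ME, the least abundant (chromosome 8, 110605 to 113510), measured 12.5, 6.77, 10.8 and 6.62 FPKM in controls and 7.59, 7.16, 6.83 and 5.09 after melatonin, and ATP5MG 34.0, 21.3, 28.9 and 21.6 FPKM in controls and 20.1, 19.4, 24.7 and 19.4 after melatonin. In both, controls 1 and 3 lay above all other libraries. Their log2 fold changes were -0.54 ± 0.21 and -0.41 ± 0.17 (SE; edgeR adjusted p = 0.453 and 0.453). ATP5IF1, which blocks the enzyme from running backwards (chromosome 6, 85307189 to 85309215), measured 129.98, 75.4, 134 and 81.0 FPKM in controls and 93.1, 85.2, 98.8 and 65.7 after melatonin, with -0.38 ± 0.19 (SE; edgeR adjusted p = 0.502).

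Subunit c, which forms the proton-driven ring, is made from a family of genes that encode the same mature protein. ATP5MC1 (chromosome 12, 25110528 to 25113478) measured 196, 119.8, 163 and 97.9 FPKM in controls and 88.6, 101, 122 and 104 after melatonin, with -0.54 ± 0.23 (SE; edgeR adjusted p = 0.461). ATP5MC2 (chromosome 5, 18871026 to 18879609) measured 42.8, 34.7, 40.9 and 45.2 FPKM in controls and 36.6, 36.9, 36.6 and 34.7 after melatonin, with -0.24 ± 0.14 (SE; edgeR adjusted p = 0.537). ATP5MC3 (chromosome 15, 81083960 to 81094289) measured 30.6, 15.9, 24.2 and 12.2 FPKM in controls and 13.02, 14.3, 17.1 and 16.5 after melatonin, with -0.50 ± 0.27 (SE; edgeR adjusted p = 0.534). Control 1 was the highest library in ATP5MC1 and ATP5MC3, and control 4 in ATP5MC2. Of the summed FPKM of the family, ATP5MC1 made up 69.4 ± 4.36% in controls and 66.7 ± 2.18% after melatonin, ATP5MC2 20.8 ± 5.83% and 23.5 ± 2.44%, and ATP5MC3 9.78 ± 1.55% and 9.80 ± 0.579% (SD, n = 4 each). The log2 ratio of ATP5MC1 to ATP5MC3 was 2.84 ± 0.15 against 2.77 ± 0.08 (exact permutation p = 0.429, adjusted 0.536). Which gene of this pair leads depends on length: the ratio was 6.90 in mean FPKM and 0.807 in counts.

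Set side by side, the complexes differed most in melatonin replicate 1. The mean log2 deviation from the control mean in that library was -0.42 in complex II, -0.59 in complex III, -0.17 in complex IV and -0.60 in complex V. Subunits alone gave -0.64 in complex III, -0.21 in complex IV and -0.62 in complex V. In that library 11 of the 13 complex IV subunits lay below the control mean. COX4I1 (313 FPKM) and COX5A (203 FPKM) were at their lowest of the 8 libraries there. COX4I2 (12.4 FPKM) and COX6A1 (5.82 FPKM) were at their highest. In melatonin replicates 2 and 4 the 4 complexes lay between -0.24 and -0.10. Control 4 lay at -0.35, -0.44, -0.34 and -0.47 in complexes II to V. Control 2 lay at 0.04, -0.07, -0.01 and -0.09, above every melatonin library in each complex. Summed levels were 336 ± 77.6 against 281 ± 19.7 FPKM in complex II, 822 ± 228 against 649 ± 49.8 in complex III, 1406 ± 289 against 1142 ± 66.7 in complex IV and 1278 ± 322 against 1023 ± 65.6 in complex V (SD, n = 4 each). Each difference was smaller than the control SD. Without melatonin replicates 1 and 3 the medians of the log2 fold changes were -0.16, -0.18, -0.25 and -0.31. Differences between complexes were not tested.

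**Figure D4:**
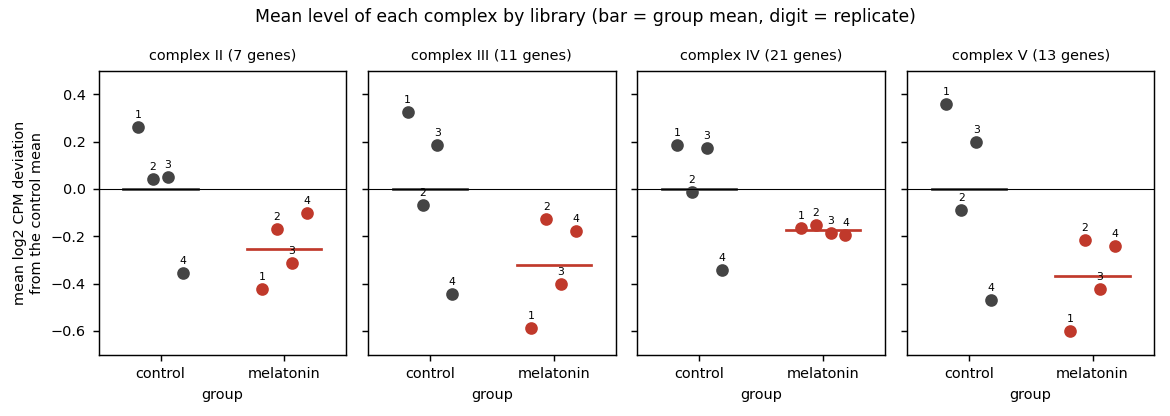
Mean log2 deviation from the control mean (TMM-scaled CPM) of the genes of each complex in each library. Controls 1 and 3 lie highest in each complex, and in melatonin replicate 1 complex IV (-0.17) lies above complexes III (-0.59) and V (-0.60). In that library 15 of the 21 complex IV genes lie below the control mean.

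Structural subunits had a median log2 fold change of -0.40, with 35 of 37 below 0, and assembly factors one of -0.17, with 11 of 14 below 0; with scaling on the muscle fibre markers these were -0.15 (29 of 37) and 0.08 (4 of 14). By level, the 23 genes with a mean of at least 50 FPKM were all below 0, with a median of -0.41, and the 29 below 50 FPKM had a median of -0.27, with 24 below 0, and under the fibre scaling 18 of 23 and 16 of 29 lay below 0. Without melatonin replicates 1 and 3 the medians of these level groups were -0.23 and -0.24. All genes tested also differed by level, with medians of 0.05 at 1 to 5 FPKM, -0.02 at 5 to 20, -0.12 at 20 to 100 and -0.09 above. Transcript length, as implied by the ratio of counts to FPKM, also ran with fold change over all genes. Other genes had a median of -0.13 under 500 bases and 0.05 at 4000 bases or more, while the 52 genes had -0.35 (5 genes) and -0.28 (10 genes) in those bins. In the 3 bins between, the medians of the 52 genes were -0.38, -0.42 and -0.31, against -0.10, -0.08 and -0.02 for other genes.

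**Figure D5:**
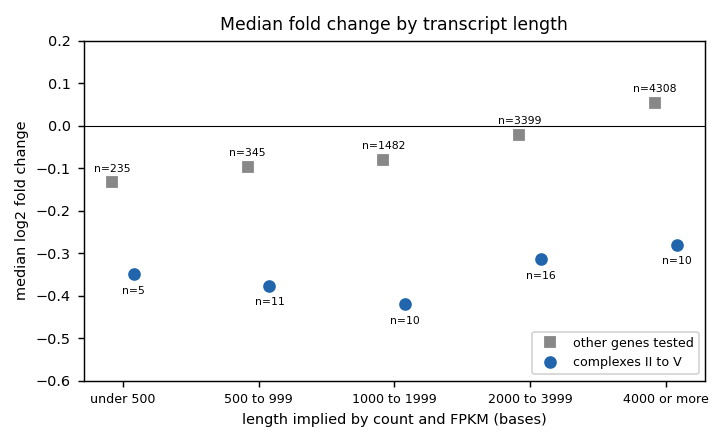
Median log2 fold change (edgeR) by implied transcript length in bases (bins from under 500 to 4000 or more), for the 52 genes and for all other genes tested. The medians of the 52 genes lie between -0.42 and -0.28 in the 5 bins, and those of other genes between -0.13 and 0.05.

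The other genes of these complexes and their surroundings (further subunits, assembly factors, cytochrome c, coenzyme Q synthesis and carriers) were taken from a list of 49, of which 42 were in the table and 38 were tested. Of the 38, 33 had a log2 fold change below 0 and 5 above, with a median of -0.32, and 24 of 38 lay below 0 with scaling on the muscle fibre markers. In edgeR 0 of them passed the adjusted threshold, and 9 lay lower (3.84% of all genes did) and 0 higher (6.67%) at an unadjusted p under 0.05. The 9 became 3 without control replicate 1, 5 without melatonin replicate 1, 16 without control replicate 4 and 1 with scaling on the muscle fibre markers. Of all genes, 2.74, 3.21, 4.64 and 0.519% were lower in those settings, in that order. ATPAF2, a chaperone for the alpha subunit of ATP synthase, measured 17.95, 13.3, 11.03 and 11.11 FPKM in controls and 6.19, 6.92, 6.97 and 7.75 after melatonin. All melatonin libraries lay below all controls. Its log2 fold change was -1.0 ± 0.23 (SE), with an adjusted p of 0.440 in edgeR and 0.0210 in DESeq2, the only one of the list that DESeq2 called. SLC25A3, the carrier that brings phosphate to ATP synthase, measured 348, 254, 281 and 284 FPKM in controls and 195, 215, 218 and 228 after melatonin. Its groups did not overlap either, as in 3 of the 38 genes against 1.07% of all genes tested, and the log2 fold change was -0.50 ± 0.18 (SE; edgeR adjusted p = 0.446). The third gene without overlap, BCS1L, inserts the Rieske protein into complex III and had -0.47 ± 0.18 (SE; edgeR adjusted p = 0.453); it is named for its values. TTC19, which clears Rieske fragments, and FMC1, an assembly factor of complex V, had -0.45 ± 0.13 and -0.45 ± 0.15 (SE; edgeR adjusted p = 0.440 and 0.440), and in both the groups overlapped.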

How the data were processed

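Per the file headers, the table deposited by the submitters pairs a count with an FPKM value for 23235 Ensembl genes in 8 libraries, with 0 value columns left over. The deposited counts are whole numbers, not normalised. The FPKM values that the authors deposited follow from those counts: in the 35 of 52 genes with at least 1000 counts in every library, count divided by FPKM departed from the product of a gene factor and a library factor by no more than 0.0472%. Per the labels' protocols, RNA was poly(A)-selected and the second cDNA strand was marked with dUTP. The submitters' processing notes name FastQC, StringTie, DESeq2 and Sscrofa11.1, with no role or version. For the aligner, the counting tool and its strand setting, the answer is not given in the sources used here. Names were added for 128 genes from a gene name table.

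The 9821 genes with a mean of at least 1 FPKM over the 8 libraries were tested on counts with edgeR 4.0.16 in R 4.3.3. Libraries were scaled by TMM, the legacy quasi-likelihood F test compared melatonin with control without covariates, and p-values were adjusted over all 9821 genes by Benjamini-Hochberg at a threshold of 0.05. A fold change in edgeR is relative to TMM-scaled libraries and so is not the plain ratio of FPKM means. TMM factors lay between 0.851 and 1.02 (controls) and between 0.866 and 1.19 (melatonin). The common biological coefficient of variation was 28.0%. Isoform ratios were tested by exact permutation, two-sided, over all 70 assignments of the libraries. Other work used Python 3.11.15, NumPy 2.4.6, pandas 2.3.3, SciPy 1.17.1 and Matplotlib 3.10.9. Within each group no library was a duplicate of another: chi-square over its degrees of freedom was at least 94.3 between libraries. Control libraries were not compared with melatonin libraries in this way. Since the labels identify a library by group and number alone, p-values measure only the spread between these samples. Of the 52 genes, 12 overlap another gene of at least 1 FPKM, 2 of them on the same strand (SDHD with DLAT, UQCR11 with MBD3).

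The genes and lists were chosen with earlier results of these data known. Genes named are a set of core subunits and isoforms, the 4 smallest unadjusted p in each complex, every gene with a fold change of the sign opposite to most, the highest and lowest in each complex and those beside the filter, and the 4 smallest unadjusted p among other respiratory genes. Alternatives were DESeq2 1.42.0, limma 3.58.1 on log2(FPKM + 1) and on log2(FPKM + 0.1), other scalings and filters, the replicate number as a block, and libraries left out. The ratio of COX8H to COX8A was chosen after seeing the data.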

Additional observations from a re-analysis of the deposited data

Results flagged for a closer look

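In groups of 4, a sample was singled out where its distance from the nearest other sample was, relative to the range of the group, above the 95% critical value of Dixon's test. Of 102 groups checked, 6 had such a sample, and chance alone gives about 1 in 20. ATP5F1D, a shaft subunit of ATP synthase, was high in melatonin replicate 2, at 208 FPKM with the next at 186. ATP5MG, a dimer interface subunit, was high in melatonin replicate 3, at 24.7 FPKM with the next at 20.1. ATP5MC2, a subunit c gene, was low in melatonin replicate 4, at 34.7 FPKM with the next at 36.6. COX4I2, the oxygen-regulated subunit 4 isoform, was high in melatonin replicate 1, at 12.4 FPKM with the next at 5.33. The log2 ratio of COX4I2 to COX4I1 was high in the same library, at -4.66 with the next at -6.06. UQCC3, a cytochrome b assembly factor, was low in control replicate 2, at 2.79 FPKM with the next at 4.45.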

How the results depend on the processing

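The count of the 52 genes called at an adjusted p under 0.05 was 0 in edgeR, DESeq2 and limma and with any single library left out. Of all genes tested, 65 were called in DESeq2 (0.662%) and 15 in edgeR without melatonin replicate 4. In edgeR on all libraries, in limma and without any other single library, 0 of all genes were called. In those settings the count for the 52 genes could only be 0. The count at an unadjusted p under 0.05 (14) was 17 in DESeq2, 3 in limma with either pseudocount, 1 with scaling on muscle fibre markers, 2 without melatonin replicates 1 and 3, and from 2 to 32 with single libraries left out. The 14 were 13 lower and 1 higher, where 3.84% of all genes were lower. The 17 in DESeq2 were 16 lower and 1 higher, where 4.69% of all genes were lower. The 3 in limma were 2 lower and 1 higher, where 1.88% of all genes were lower. The 2 and 32 arose without control replicates 1 and 4, where 2.74 and 4.64% of all genes were lower. The 1 gene under muscle fibre scaling was higher, and 0 of the 52 were lower there, against 0.519% of all genes. Without melatonin replicates 1 and 3, 2.02% of all genes were lower. The labels do not say whether replicate numbers pair the samples. Correlations were 0.17, 0.08, 0.15 and -0.04 for same-numbered samples and from -0.24 to 0.31 for the others, which cannot settle it. With the replicate block the count at an unadjusted p under 0.05 was 6. Of these, 5 were lower and 1 higher, where 4.59% of all genes were lower. Muscle fibre scaling moved the median log2 fold change to -0.0936 for the 52 genes, -0.10 for complex II, 0.000422 for complex IV and -0.0747 for the other respiratory genes, while that of all genes became 0.26. With single libraries left out, medians ran from -0.43 to -0.24 for the 52 genes, -0.46 to -0.20, -0.51 to -0.25, -0.34 to -0.17 and -0.54 to -0.27 for complexes II to V, and -0.41 to -0.20 for the other genes. The count of genes wholly below controls (1) was 5 in TMM-scaled CPM, where 2.02% of all genes lay wholly below, and from 1 to 5 with single libraries left out, where 1.29 to 3.13% of all genes did.

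The difference in log2 ratio ran from -0.92 to -0.51 for COX6A2 to COX6A1, -0.40 to -0.12 for COX7A1 to COX7A2, 0.37 to 0.89 for COX4I2 to COX4I1 and -0.12 to -0.01 for ATP5MC1 to ATP5MC3. For COX8H to COX8A (0.06) it ran from -0.0322 (without control replicate 1) to 0.16, and was -0.00463 without melatonin replicate 1. Among the genes named by the rule, signs of fold changes turned for COX16 (-0.0931 without control replicate 4, up to 0.412 with others left out), COX4I2 (-0.00634 without melatonin replicate 1, up to 0.499 with others left out), COX6A1 and SDHD (-0.18 and 0.00497 without melatonin replicates 1 and 3), and, with muscle fibre scaling, SDHD (0.0524), COX7A2 (0.00269), COX7A2L (0.14), SDHAF2 (0.0162) and UQCC3 (0.0124). Muscle fibre scaling turned 13 of the 52 in all. With single libraries left out, 14 of 39 named genes moved by over 1.5 times: COX16 and COX4I2, and, with the sign kept, ATP5F1A (-0.66 to -0.21), ATP5MC3 (-0.70 to -0.28), COX8A (-0.42 to -0.14), COX6A1 (0.04 to 0.45), SDHAF4 (0.06 to 0.33), COX7A2 (-0.44 to -0.08), COX7A2L (-0.30 to -0.02), SDHA (-0.46 to -0.20), SDHD (-0.33 to -0.08), UQCC3 (-0.39 to -0.12), UQCRC1 (-0.51 to -0.25) and UQCRFS1 (-0.55 to -0.23). The cause was not tested. With 4 libraries a group, the exact tests cannot go below a p of 0.0286.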

Other observations

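Regulators that drive the transcription of respiratory genes were described from a list of 8, of which 5 had a log2 fold change below 0 and 3 above, with a median of -0.21 (3 below 0 with scaling on the muscle fibre markers). In edgeR 0 of the 8 passed the adjusted threshold, against 0.00% of all genes, and 2 lay lower at an unadjusted p under 0.05, against 3.84%. These were the coactivators PPARGC1B, with 2.29, 2.45, 2.29 and 1.52 FPKM in controls and 1.11, 0.887, 0.826 and 1.72 after melatonin (log2 fold change -0.96 ± 0.33, SE; edgeR adjusted p = 0.441), and PPARGC1A, with 1.79, 1.62, 1.85 and 1.34 FPKM in controls and 1.12, 1.31, 1.58 and 0.580 after melatonin (-0.64 ± 0.25, SE; edgeR adjusted p = 0.453). In both the groups overlapped, and controls 1 and 3 did not stand apart from control 2. ESRRA, a nuclear receptor that works with them, had -0.32, TFAM, which packages mitochondrial DNA, -0.17, and GABPA 0.04 on the log2 scale. Both coactivators were named after their values were seen. The count of 2 was 0 without control replicate 2 or without melatonin replicates 1 and 3, where 2.99 and 2.02% of all genes were lower. It was 3 without control replicate 4 (4.64% of all genes) and 1 with scaling on the muscle fibre markers (0.519%).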
